A study of Mus musculus with 18 samples.

Results

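Long intergenic noncoding RNA genes (lincRNA genes) were followed across a mouse Sonic hedgehog (SHH) medulloblastoma line and whole mouse brain after exposure to CT-179, a compound that inhibits OLIG2, a transcription factor. The members were chosen by their measured level: a gene was taken where the deposited cell table types it as lincRNA and gives it at least 1 FPKM (fragments scaled to gene length and to the depth of the library) in at least 3 of the 12 cell libraries. Malat1, Miat, Neat1, Meg3, H19, Rian, Gas5, Zfas1 and the Snhg genes were left out by name, which removed 8 of the 156 genes over the level. This left 148 genes of the 5622 lincRNA genes and 55183 genes in the cell table. Of the 148, 128 were also listed in the brain table, and 82 reached the level for testing there. The cells were PTCP53 304, a single line of the genotype Ptch1+/-; Trp53-/-, grown with CT-179 or vehicle and collected after 24 h, on culture day 1, or after 144 h, on culture day 6. The brains were whole brains of Ptch1+/- mice dosed with CT-179 or vehicle for 12 days from postnatal day 3 and harvested on postnatal day 15, and IR, an abbreviation that is not explained, stands in their genotype label as well. The 4 cell groups and both brain groups had 3 libraries each. Whether replicates came from separate cultures or animals is not stated in the labels; the p-values describe the spread among these libraries alone, which for the cell libraries may be technical.

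LincRNA genes are transcribed from the stretches between protein-coding genes and are often spliced and polyadenylated, yet encode no known protein. Some act on the chromatin or the genes next to them, some bind proteins or microRNAs in the cytoplasm, and some serve as primary transcripts from which microRNA hairpins are cut. Their levels are usually low and more cell-type-specific than those of protein-coding genes, and the developing brain expresses many of them. For most members there is no described function, and 82 of the 148 carry only a Gm number and 47 only a Rik name.

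The members with the lowest log2 fold changes under CT-179, among those that passed, included Gm3764, a primary transcript of microRNAs. On the GRCm38.p6 assembly, RefSeq places 15 microRNA hairpins inside the gene body and on the same strand of 8 members. Gm3764, C130071C03Rik and Mir9-3hg hold the 3 mouse copies of the hairpin for miR-9, a microRNA abundant in neural progenitors that acts on the timing of neurogenesis. The 3 hairpins are shown because they differ in their loops and flanks while giving the same mature RNAs. Capitals mark the mature arms, the 5p arm first, and all sequences run 5′ to 3′ as RNA.
Mir9-1, in an intron of Gm3764, chr3:88215598-88215686, plus strand: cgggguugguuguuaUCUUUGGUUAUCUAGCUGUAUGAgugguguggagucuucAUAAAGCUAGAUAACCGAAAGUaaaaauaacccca
Mir9-2, in exons of C130071C03Rik, chr13:83738814-83738885, plus strand: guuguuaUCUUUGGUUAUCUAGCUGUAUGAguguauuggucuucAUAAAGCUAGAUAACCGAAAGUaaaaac
Mir9-3, in an intron of Mir9-3hg, chr7:79505264-79505353, plus strand: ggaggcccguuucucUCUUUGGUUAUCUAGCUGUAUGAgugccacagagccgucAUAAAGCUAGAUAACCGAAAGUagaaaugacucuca
The mature RNAs follow with the seed, bases 2 to 8, in capitals. miR-101a-3p is cut from a hairpin in an exon of E130102H24Rik, and the miR-344 RNAs from hairpins in introns of A230057D06Rik, which holds 7 hairpins of that family. These 2 hosts reached 1 FPKM only in vehicle at 144 h, so the rule fixed their lower level with CT-179 at that time.
miR-9-5p: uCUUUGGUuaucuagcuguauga
miR-9-3p: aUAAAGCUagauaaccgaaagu
miR-3093-5p, from Gm3764: cGCACCCCgcggagcucacacu
miR-101a-3p: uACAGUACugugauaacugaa
miR-344-3p: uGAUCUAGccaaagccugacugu
miR-344c-3p: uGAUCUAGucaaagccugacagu
miR-344d-3p: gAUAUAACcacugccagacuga
miR-344e-3p: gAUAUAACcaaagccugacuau
The 15 hairpins give 22 distinct mature RNAs with 16 distinct seeds in RefSeq. miR-344-3p shares its seed with miR-344c-3p, and miR-344d-3p shares a second seed with miR-344e-3p. The libraries were made with a kit for mRNA, and levels of mature microRNAs were not analysed here.

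The cell libraries held an implied depth of 22.1 to 53.1 M (mega) reads and the brain libraries 12.7 to 50.1 M, the lowest being vehicle replicate 2. At 144 h, replicate 2 of CT-179 stood apart, with a lowest correlation of 0.941 to its own group, where every cell library of the other groups reached at least 0.996 within its group. In that library 42 members lay more than 1.5 times above both other CT-179 libraries of 144 h and 36 lay more than 1.5 times below both, against 4 and 4 for replicate 1 and 2 and 6 for replicate 3. Its deviation had a Spearman rho of -0.36 with exonic length over the 148 members, so that short transcripts tended to be high and long ones low. Values at 144 h are therefore also given without it. Of 13 marker genes of SHH medulloblastoma and granule neuron precursors, 7 were at 1 FPKM or more in both cell groups of 24 h and 9 in both of 144 h. Their summed level was 64.8 to 204 FPKM over the cell libraries. Among them Atoh1, Barhl1 and Neurod1 were at or near 0 in the cells although the label is SHH medulloblastoma. Gli1 averaged 1.90 to 20.4 FPKM and Zic1 13.8 to 16.1 FPKM over the cell groups. Olig2, from a list of 6 oligodendrocyte precursor markers, averaged 201 to 401 FPKM. The summed level of that list was 678 to 1181 FPKM over the cell libraries. The summed level of 4 astrocyte markers was 111 to 160 FPKM at 144 h and 2.23 to 2.49 FPKM at 24 h, the summed microglial and endothelial markers reached at most 0.0622 and 0.163 FPKM, and the part of cell composition in the results was not tested.

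**Figure D1:**
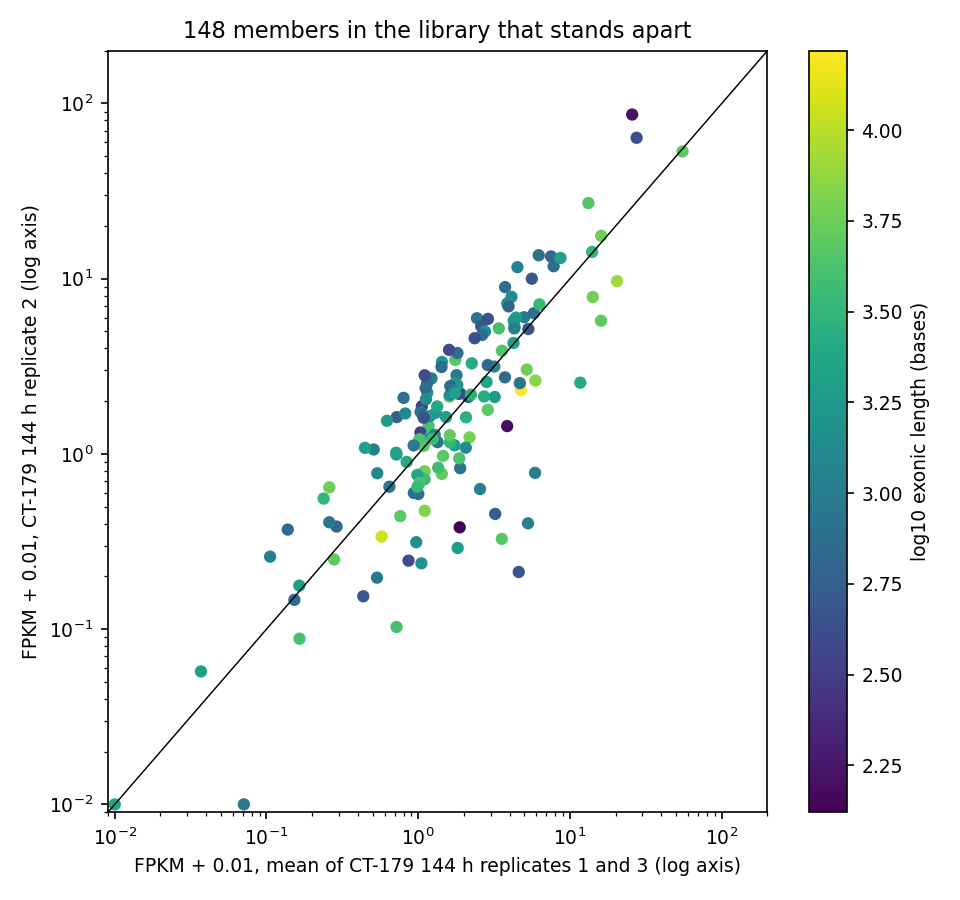
FPKM of the 148 lincRNA members in CT-179 144 h replicate 2 (vertical, log axis) against the mean of replicates 1 and 3 of the same group (horizontal, log axis), with 0.01 added and colour for log10 exonic length in bases. Members lie on both sides of the line of equality, 42 more than 1.5 times above both other libraries and 36 more than 1.5 times below.

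Most members were low. The mean over the 12 cell libraries was under 2 FPKM for 84 members, from 2 to under 10 FPKM for 51 and at least 10 FPKM for 13, with a median of 1.69 FPKM. All 3 libraries of all 4 cell groups were at 1 FPKM or more for 54 members. Counting any library, 33 members reached that level only in libraries of 144 h, 16 only in libraries of 24 h and 4 only in vehicle libraries. Exonic lengths ran from 132 to 16543 bases with a median of 1524, and 26 members had a single exon. The median member had 85.8 implied reads per library, and 30 members had fewer than 30. Just inside the level that defined the list stood Gm15104, whose third-highest value was 1.0141 FPKM, and Gm17484 at 1.0148 FPKM. Just outside stood Mir670hg at 0.993 FPKM and Gm31946 at 0.990 FPKM.

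The highest member in cells was Gm10076, a single-exon locus whose sequence is 99.5% identical to the ribosomal protein mRNA Rpl41, so its reads may belong to either. It averaged 163 FPKM in cells. Bc1 averaged 48.5 FPKM and 2900097C17Rik 48.1 FPKM, followed by Gm3764 at 23.7, Epb41l4aos at 23.3, Oip5os1 at 20.9, Pvt1 at 20.4, Gm42047 at 18.2, Erdr1 at 17.2 and Pantr1 at 13.1 FPKM. 2900097C17Rik is the mouse Norad gene, whose abundant cytoplasmic RNA binds Pumilio proteins and guards chromosome stability. Oip5os1, also called Cyrano, is a conserved RNA that promotes the decay of a microRNA.

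With CT-179 at 144 h the primary transcript Gm3764 and the divergent transcript AI480526 had the lowest log2 fold changes among the members that passed, and most members that passed were lower. Of the 148 members, 1 rose (0.512% of all 12510 genes tested did) and 7 fell (3.37% of all genes), with limma on log2(FPKM + 1) and an adjusted p under 0.05; 3.88% of all genes passed in either direction, and 5.41% of the members. Of the 7, 3 reached 1 FPKM only in vehicle libraries of 144 h. The median log2 fold change was -0.05 over the members and -0.05 over all genes. Without replicate 2 of CT-179, 8 members rose and 29 fell, where 11.7% and 16.8% of all genes did so, and the medians were -0.07 over members and -0.01 over all genes. The groups did not overlap for 50 members (46.2% of all genes), 13 higher and 37 lower with CT-179 (19.1% and 27% of all genes), and for 76 members without replicate 2 (59.6% of all genes). In bulk RNA fewer cells of a type and less RNA per cell cannot be told apart. Since every gene tested had to pass the level that defined the members, a gene that passed through a single group had to differ, and these counts describe the list only.

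Gm3764, a transcript of chr3:88206813-88229959 on the plus strand with 5813 exonic bases, carries miR-9 and miR-3093. At 144 h it had 17.9, 17.6 and 14.1 FPKM with CT-179, against 36.1, 36.8 and 35.1 FPKM with vehicle. All 3 CT-179 libraries lay below all vehicle libraries, and the library that stood apart was in the middle of its group. The log2 fold change was -1.08 (SE 0.09, limma adjusted p = 7.2e-04), and -1.13 without replicate 2 (adjusted p = 2.2e-05). At 24 h it had 12.3, 12.8 and 11.4 FPKM with CT-179, against 31.5, 31.8 and 27.4 FPKM with vehicle, a log2 fold change of -1.25 (standard error 0.09; limma adjusted p = 0.0011). Again the groups did not overlap. The lower level was thus present at both times, and the difference between them, 0.16 on the log2 scale, had an adjusted p of 0.69 in limma. These FPKM values rest on a mean of 3542 implied reads per library with CT-179 and 7043 with vehicle at 144 h.

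The cell table also lists the hairpins inside Gm3764 as genes of their own. Mir3093 had 6.19, 1.13 and 2.19 FPKM with CT-179 at 144 h, against 13.5, 12.98 and 13.7 FPKM with vehicle. The groups were separate, and the log2 fold change was -1.98 (SE 0.35, limma adjusted p = 0.014), or -1.59 (adjusted p = 0.0018) without replicate 2. At 24 h Mir3093 averaged 2.32 ± 0.57 FPKM in CT-179 libraries and 8.13 ± 1.75 FPKM in vehicle libraries (SD, n = 3 each), with a log2 fold change of -1.46 and an adjusted p of 0.20 in limma, or 0.0023 without replicate 2 of 144 h. Mir9-1 averaged 2.11 ± 1.27 FPKM in CT-179 libraries and 4.77 ± 2.54 FPKM in vehicle libraries at 144 h (SD, n = 3 each; limma adjusted p = 0.15). At 24 h its log2 fold change was -1.22, with a limma adjusted p of 0.31, or 0.0066 without replicate 2 of 144 h. Both hairpins lie in an intron of Gm3764, and their values do not measure the mature microRNAs. Mir3093 spans 87 bases and Mir9-1 spans 89 bases, so FPKM values of this size rest on few reads. Their implied reads were not computed, and their log2 fold changes and p-values are uncertain.

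The other hosts of miR-9 did not pass at 144 h. C130071C03Rik, chr13:83721381-83884194, had 13.99, 7.85 and 14.3 FPKM with CT-179 at 144 h, against 15.5, 16.6 and 14.9 FPKM with vehicle. All CT-179 libraries were below the vehicle libraries, but replicate 2 lay far below the other CT-179 libraries, and the log2 fold change was -0.39 (SE 0.17, limma adjusted p = 0.17) with it and -0.14 (adjusted p = 0.053) without it. At 24 h it had 6.04, 5.80 and 6.41 FPKM with CT-179, against 8.04, 8.27 and 8.30 FPKM with vehicle, and its log2 fold change of -0.38 passed limma only without replicate 2 of 144 h (adjusted p = 0.98 with it and 2.8e-04 without it). Mir9-3hg, chr7:79500026-79534403, had 3.63, 3.87 and 3.47 FPKM with CT-179 at 144 h, against 3.51, 3.80 and 3.45 FPKM with vehicle. These groups overlapped throughout, with a log2 fold change of 0.02 (SE 0.07). At 24 h its values were 1.503, 1.69 and 1.33 FPKM with CT-179, against 1.93, 1.85 and 1.87 FPKM with vehicle, separate groups with a log2 fold change of -0.20 (limma adjusted p = 0.50, and 0.023 without replicate 2 of 144 h). Gm3764 also made up most of the summed level of the miR-9 hosts in vehicle, as the per-library values show.

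E130102H24Rik and A230057D06Rik, hosts of miR-101a and of the miR-344 family, reached 1 FPKM only in the vehicle libraries of 144 h. The level that made them members therefore fixed the direction at 144 h, and their values are a description. E130102H24Rik, chr4:101346531-101356735 on the minus strand, had 0.456, 0.187 and 0.594 FPKM with CT-179, against 1.46, 1.40 and 1.23 FPKM with vehicle, on a mean of only 13.6 implied reads with CT-179 and 42.3 with vehicle. A230057D06Rik, chr7:61704519-61928690 on the minus strand, had 0.664, 0.328 and 0.463 FPKM with CT-179, against 1.32, 1.22 and 1.30 FPKM with vehicle. The log2 fold changes were -0.75 and -0.63 in this order, and -0.63 and -0.55 without replicate 2.

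Of the 8 microRNA hosts, 3 passed as lower and none as higher at 144 h, where 3.37% of all genes were lower, and 2 of the 3 were the hosts that met the level only in vehicle at 144 h. At 24 h 1 host passed as lower (0.264% of all genes). Of the other 140 members, 4 were lower at 144 h and 1 at 24 h. The median log2 fold change at 144 h was -0.28 over the hosts and -0.03 over the other members, and -0.28 and -0.07 without replicate 2. Both host medians include the 2 hosts whose direction the level fixed at 144 h, and no median was taken without them. Without that library 5 hosts were lower at 144 h (16.8% of all genes) and 4 at 24 h (14% of all genes), against 24 and 27 of the other members. At either time or both, 7 hosts and 37 of the other 140 members were lower, a count that was not made over all genes. The 7 included the 2 hosts that met the level only in vehicle at 144 h. The grouping by microRNA was made after these values were seen and is not tested. The plot of the hosts by library shows that the gap between CT-179 and vehicle was wide for Gm3764, A230057D06Rik and E130102H24Rik at 144 h and narrow or absent for the others.

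**Figure D2:**
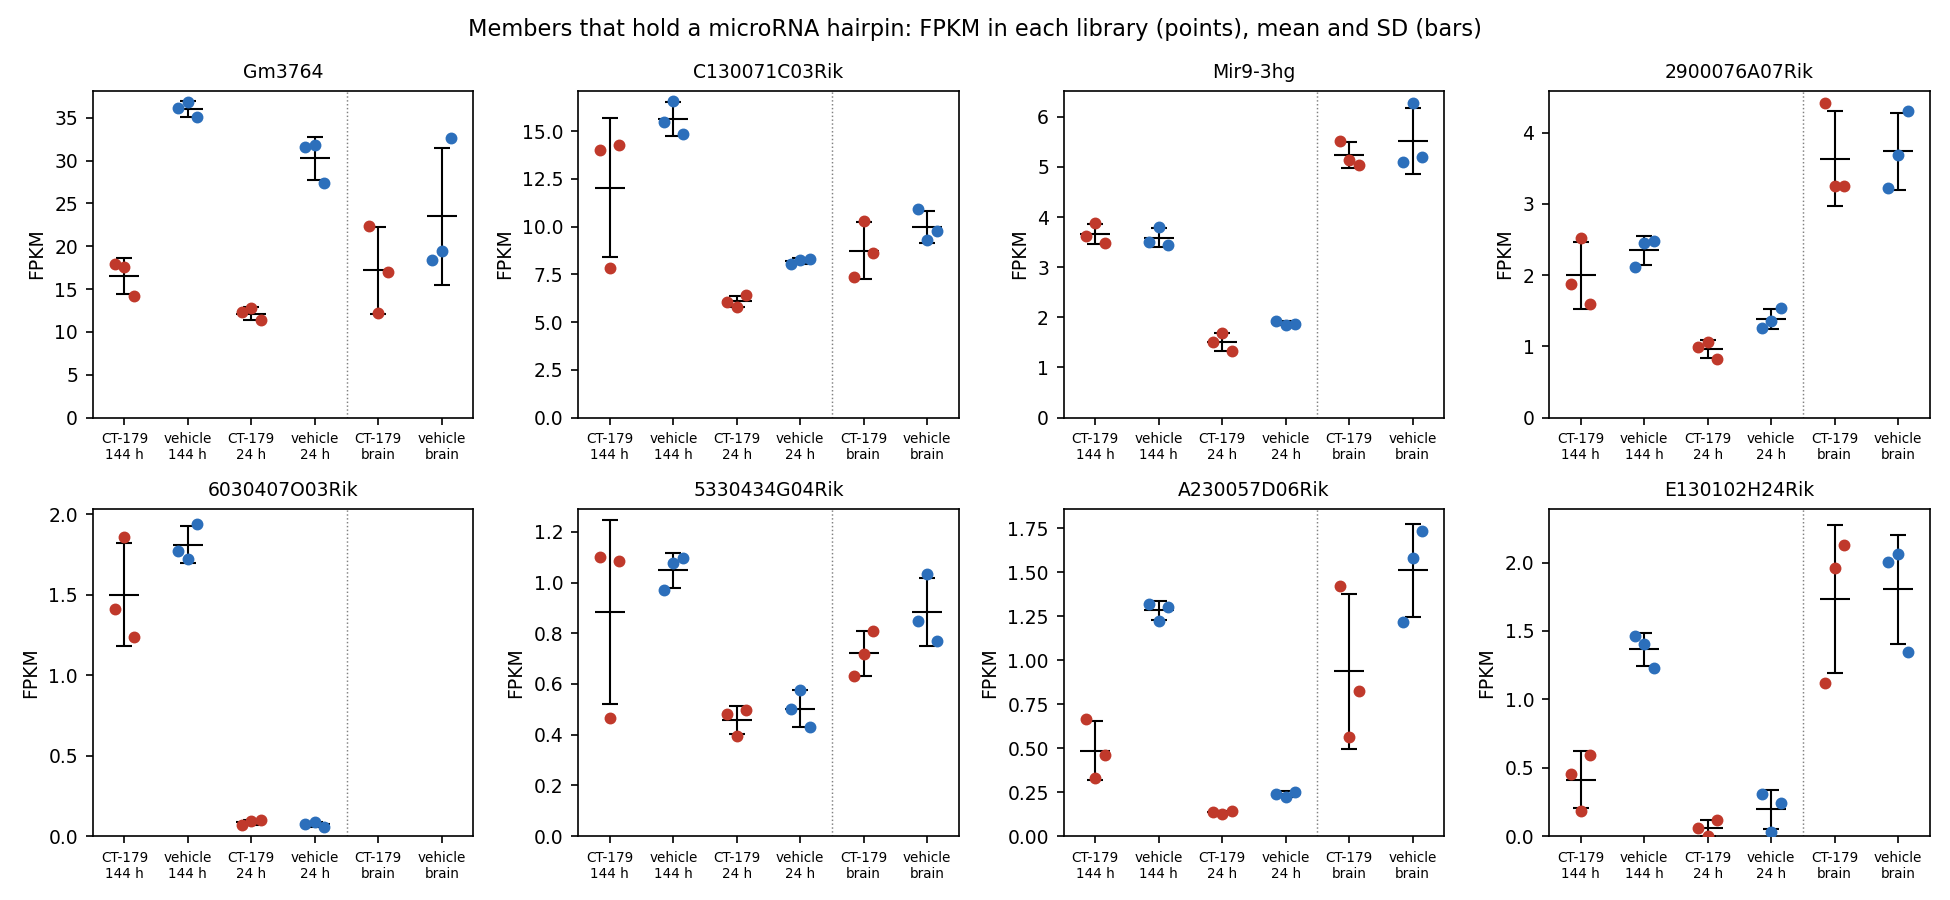
FPKM (vertical) of the 8 members that hold a microRNA hairpin, by group: CT-179 in red and vehicle in blue, points for libraries, bars for mean and SD, with the brain right of the dotted line (tables normalized separately). Gm3764 with CT-179 sits at 14.1 to 17.9 FPKM at 144 h, all below the vehicle libraries at 35.1 to 36.8 FPKM; 6030407O03Rik is not listed in the brain table.

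AI480526, chr5:123133723-123141666 on the minus strand, starts 527 bases from the start of Setd1b, which encodes a histone H3 lysine methyltransferase and is read from the opposite strand. At 144 h AI480526 had 1.62, 0.965 and 1.27 FPKM with CT-179, against 4.77, 5.07 and 4.82 FPKM with vehicle. The groups were far apart, with a log2 fold change of -1.37 (standard error 0.10; limma adjusted p = 3.1e-04), and -1.27 without replicate 2. At 24 h it had 0.365, 0.443 and 0.251 FPKM with CT-179, against 1.16, 1.22 and 1.15 FPKM with vehicle. These groups were separate too, with a log2 fold change of -0.69 (standard error 0.10; limma adjusted p = 0.033). That call was lost, with adjusted p-values of 0.064 to 0.18, when any library of 24 h or of vehicle at 144 h was left out. Setd1b had 7.71, 3.18 and 7.69 FPKM with CT-179 at 144 h, against 8.45, 8.79 and 8.38 FPKM with vehicle. Its log2 fold change was -0.49 (SE 0.23, limma adjusted p = 0.18), and -0.13 (adjusted p = 0.019) without replicate 2.

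The remaining members that fell at 144 h have no described role. Gm42047, chr8:121833247-121841178, had 5.32, 3.02 and 5.04 FPKM with CT-179, against 7.56, 7.30 and 7.32 FPKM with vehicle. The groups were separate with replicate 2 lowest, and the log2 fold change was -0.65 (SE 0.14, limma adjusted p = 0.031), or -0.44 (adjusted p = 1.1e-05) without that library. A near-identical stretch of Gm48362 covers 64.2% of its transcript, so its reads may be shared. Gm27010 had 0.277, 0.397 and 0.221 FPKM with CT-179, against 1.08, 1.42 and 1.10 FPKM with vehicle. It too reached 1 FPKM only in vehicle at 144 h, so its log2 fold change of -0.76 is a description, on a mean of 9.63 implied reads with CT-179 and 34.6 with vehicle. Gm43597 had 1.06, 1.10 and 1.10 FPKM with CT-179, against 1.58, 1.72 and 1.45 FPKM with vehicle, a small but separate difference of -0.31 on the log2 scale (limma adjusted p = 0.023).

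Halr1 was the member that rose at 144 h. It lies at chr6:52102949-52113684 on the plus strand. At 144 h it had 4.48, 6.02 and 5.47 FPKM with CT-179, against 3.83, 3.71 and 3.27 FPKM with vehicle. All CT-179 libraries were higher, with a log2 fold change of 0.45 (standard error 0.09; limma adjusted p = 0.025), or 0.37 (adjusted p = 0.0033) without replicate 2. With a correction for transcript length and all libraries it was 0.18 (adjusted p = 0.27). At 24 h the groups overlapped at 14.4, 15.9 and 15.1 FPKM with CT-179, against 14.7, 15.2 and 15.4 FPKM with vehicle.

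RefSeq promoter windows of 300 bases around the annotated start were matched by symbol for 81 of the members, giving 96 promoters. OLIG2 is a basic helix-loop-helix factor, and factors of its kind bind E-boxes, short palindromic or near-palindromic motifs. The promoters of the member that rose and of the host Gm3764 are shown as DNA, with the motifs searched in capitals. These were CAGCTG and CACGTG, each its own reverse complement, and on both strands CAGATG, which reads as CATCTG on the other strand; they do not overlap each other in these windows.
Halr1, chr6:52102699-52102998, plus strand: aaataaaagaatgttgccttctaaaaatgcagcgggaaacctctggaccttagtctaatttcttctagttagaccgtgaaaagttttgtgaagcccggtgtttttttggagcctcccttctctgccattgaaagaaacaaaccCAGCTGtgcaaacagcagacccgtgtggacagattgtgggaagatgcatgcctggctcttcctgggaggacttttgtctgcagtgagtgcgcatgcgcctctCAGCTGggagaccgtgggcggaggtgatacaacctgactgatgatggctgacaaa
Gm3764, chr3:88214232-88214531, plus strand: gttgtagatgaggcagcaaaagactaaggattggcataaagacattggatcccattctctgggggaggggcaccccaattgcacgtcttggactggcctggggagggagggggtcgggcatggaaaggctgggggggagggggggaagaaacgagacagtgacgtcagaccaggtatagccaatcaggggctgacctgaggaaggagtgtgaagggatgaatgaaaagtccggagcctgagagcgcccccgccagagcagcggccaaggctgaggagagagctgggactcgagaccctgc
The Halr1 window holds CAGCTG 2 times and no other of these motifs, and the Gm3764 window holds none of these letters. CAGCTG was found in 20.8% of the 96 member promoters and in 16.3% of all 32851 promoters of that length. CAGATG or CATCTG was found in 17.7% of member promoters and 17.2% of all, and CACGTG in 7.29% of member promoters and 7.15% of all. The Gm3764 window lies inside the gene body of the annotation used for the counts, upstream of the miR-9 hairpin printed earlier.

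At 24 h Gm3764 and AI480526, described with their 144 h values, were the 2 members that fell (0.264% of all genes fell), and none rose. At an unadjusted p under 0.05 there were 22 members and 640 of all 12510 genes. The next in order of p did not pass. 5430416N02Rik had 1.40, 1.40 and 1.44 FPKM with CT-179, against 2.40, 2.77 and 2.22 FPKM with vehicle. AU020206 had 9.15, 9.06 and 9.46 FPKM with CT-179, against 11.7, 12.1 and 12.8 FPKM with vehicle. In both the groups were separate, and the adjusted p in limma was 0.064 and 0.068. Over all members the groups did not overlap for 47 (37.3% of all genes), 4 higher and 43 lower with CT-179 (14.5% and 22.9% of all genes).

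The spread of CT-179 144 h replicate 2 enters the shared variance of all contrasts. Without it, 3 members rose and 31 fell at 24 h, where 8.06% and 14% of all genes did. In that fit 16 members fell at both times, 51.6% of the 31 at 24 h and 55.2% of the 29 at 144 h, and Gm10076 rose at both. The overlap over all genes was not counted, so these shares describe the list and do not set the members apart. The 16 were 2900076A07Rik, 2900097C17Rik, 5430416N02Rik, AI480526, E430024I08Rik, Erdr1, Gm26779, Gm27010, Gm37494, Gm3764, Gm42047, Gm42595, Gm43597, Gm43703, Gm8066 and Oip5os1. Each time had its own vehicle libraries. Of the 16, Gm27010 reached 1 FPKM only in vehicle at 144 h, which fixed its direction at that time. Among them Gm26779 had 3.64, 0.445 and 2.77 FPKM with CT-179 at 144 h, against 5.97, 6.77 and 5.99 FPKM with vehicle, and 1.16, 1.40 and 1.17 FPKM with CT-179 at 24 h, against 2.67, 2.34 and 2.61 FPKM with vehicle. At both times every CT-179 library was below every vehicle library. Rpl41, the coding copy of Gm10076, averaged 461 ± 285 FPKM in CT-179 libraries and 259 ± 7.5 FPKM in vehicle libraries at 144 h (SD, n = 3 each).

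**Figure D3:**
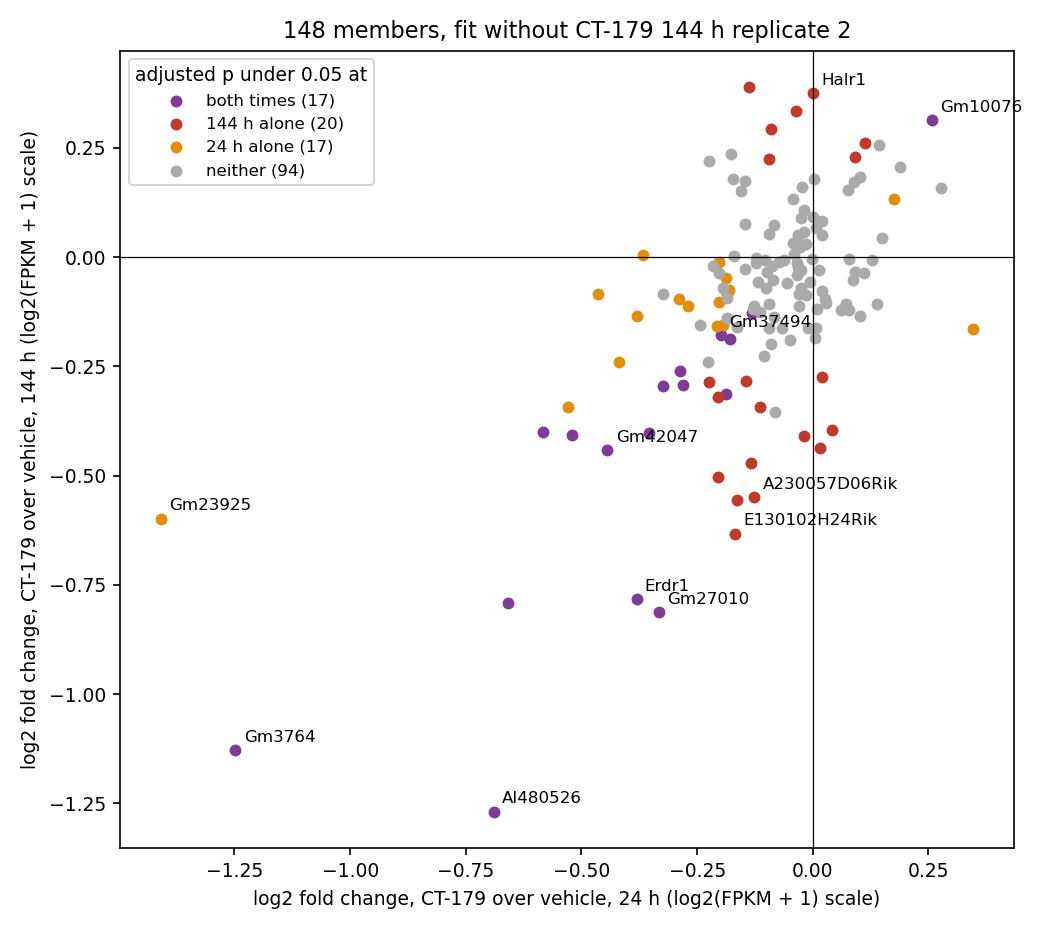
Log2 fold change of CT-179 over vehicle for the 148 members, at 144 h (vertical) against 24 h (horizontal), on the log2(FPKM + 1) scale from the fit without CT-179 144 h replicate 2; colours give the times at which the limma adjusted p was under 0.05. Gm3764 and AI480526 lie at the lower left, with log2 fold changes of -1.13 and -1.27 at 144 h, and most coloured points lie below or left of 0.

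No member passed when the CT-179 effect at 144 h was tested against that at 24 h (0% of all genes passed in limma), with 12 members and 574 genes at an unadjusted p under 0.05. The smallest p belonged to AI480526, whose difference was -0.68 (SE 0.14, adjusted p = 0.42). Without replicate 2, 3 members passed with a more negative and 3 with a more positive change at 144 h, against 1.44% and 1.19% of all genes. The more negative were AI480526 at -0.58, Gm27010 at -0.48 and A230057D06Rik at -0.42, and all 3 were also higher at 144 h than at 24 h in vehicle, where the log2(FPKM + 1) scale compresses a ratio less; Gm27010 and A230057D06Rik reached 1 FPKM only in vehicle at 144 h. The more positive were Gm35040 at 0.39, AU020206 at 0.37 and Pvt1 at 0.32.

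More members passed for time in culture than for CT-179, and the same held over all genes. Of all genes 66.5% passed for time in vehicle and 3.88% for CT-179 at 144 h, by limma with all libraries. In vehicle, 61 members rose and 44 fell between the times, as 144 h over 24 h (34.1% and 32.4% of all genes), and with CT-179 66 rose and 40 fell (33.2% and 32.1%). The level fixed part of this, since 33 members reached 1 FPKM in no 24 h library and 16 in no 144 h library. Of the 99 members that reached it at both times, 30 rose and 28 fell in vehicle, and 34 rose and 24 fell with CT-179. The shares of all genes under the same limit were not counted. Without replicate 2 of CT-179 at 144 h, 125 members passed in vehicle (87.6% of all genes) and 124 with CT-179 (85.6% of all genes). The times did not overlap in vehicle for most members (87.5% of all genes), 76 higher and 47 lower at 144 h (44.6% and 42.9% of all genes). The share of members that passed in vehicle was 70.9%, against 66.5% of all genes, and 71.6% with CT-179, against 65.3%. The median log2 fold change of the members was 0.22 in vehicle and 0.15 with CT-179, where the medians of all genes were 0.01 and -0.02. Of the members that passed, 56 rose and 38 fell under both treatments, and none passed in opposite directions. The treatments were compared with separate libraries at each time. This overlap was not counted over all genes, most of which passed for time, so it describes the list only. The summed level of the astrocyte markers, given with the marker genes, was higher at 144 h in the same contrast.

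Pvt1 had the lowest log2 fold change with time in vehicle. It lies 47.6 kb downstream of Myc on chr15:62037986-62378096, and its locus is often amplified together with Myc in tumours. In vehicle it had 4.84, 5.01 and 4.88 FPKM at 144 h, against 38.5, 36.4 and 36.7 FPKM at 24 h. With CT-179 it had 5.84, 2.61 and 5.98 FPKM at 144 h, against 35.5, 32.8 and 36.0 FPKM at 24 h. The times were far apart under both treatments, with log2 fold changes of -2.69 in vehicle (limma adjusted p = 6.4e-07) and -2.68 with CT-179 (adjusted p = 6.8e-07). At 144 h without replicate 2, Pvt1 was slightly higher with CT-179, with a log2 fold change of 0.23 (limma adjusted p = 0.0025), while with all libraries it was -0.09.

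The other members within 2 Mb of Myc reached 1 FPKM only at 24 h, so the level fixed their direction with time and their values are a description. Gm49497, 744 kb upstream, had 0.201, 0.231 and 0.180 FPKM in vehicle at 144 h, against 2.63, 2.83 and 3.30 FPKM at 24 h. Gm38563, 820 kb upstream, had 0.115, 0.132 and 0.171 FPKM at 144 h, against 2.06, 1.64 and 1.63 FPKM at 24 h. Gm2682, 1798 kb upstream on the minus strand, had 0.0662, 0.0303 and 0.0148 FPKM at 144 h, against 1.36, 1.44 and 1.39 FPKM at 24 h. Their log2 fold changes in vehicle were -1.70, -1.28 and -1.21. Myc itself, the growth-promoting transcription factor, averaged 28.2 ± 1.45 FPKM at 144 h and 97.8 ± 7.49 FPKM at 24 h in vehicle (SD, n = 3 each), and its log2 fold change was -1.76 (limma adjusted p = 3.2e-08). With CT-179 the time changes of the 3 members were -1.73, -1.11 and -1.18. None of the 3, nor Myc, passed for CT-179 over vehicle at either time.

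**Figure D4:**
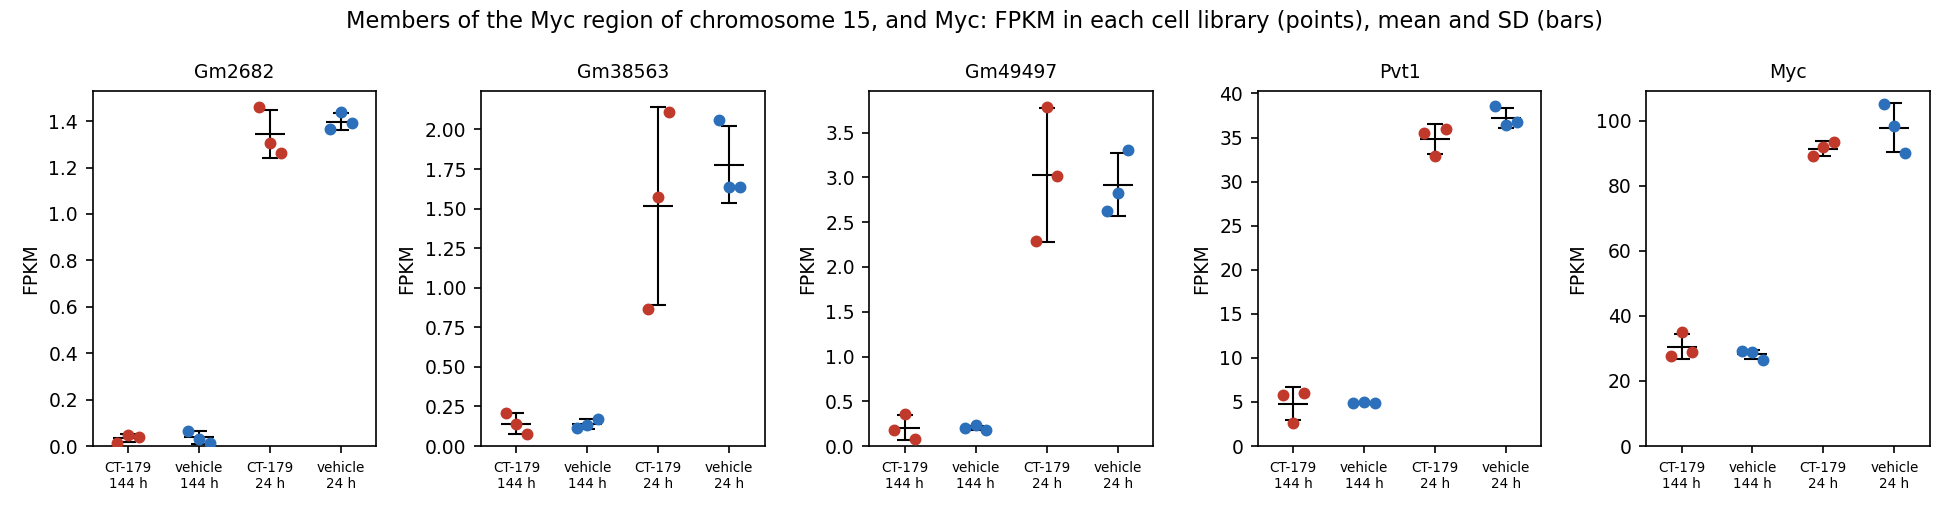
FPKM (vertical) in the 4 cell groups for the 4 members within 2 Mb of Myc and for Myc: CT-179 in red and vehicle in blue, points for libraries, bars for mean and SD. Gm49497, Gm38563 and Gm2682 entered the list only through the 24 h libraries; Pvt1 lies at 2.61 to 5.98 FPKM at 144 h against 32.8 to 38.5 FPKM at 24 h.

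Further low log2 fold changes with time in vehicle belonged to Gm42047, Halr1, Gm49503 and 2700038G22Rik, of which Gm49503 reached 1 FPKM only at 24 h. Gm42047 had 7.56, 7.30 and 7.32 FPKM at 144 h, against 35.1, 35.2 and 35.5 FPKM at 24 h, a log2 fold change of -2.11 (limma adjusted p = 2.0e-07). Halr1 had 3.83, 3.71 and 3.27 FPKM at 144 h, against 14.7, 15.2 and 15.4 FPKM at 24 h, a log2 fold change of -1.81 (limma adjusted p = 2.7e-08). Gm49503 had 0.252 and 0.327 FPKM in vehicle replicates 1 and 3 and was listed at 0 in replicate 2 at 144 h, against 3.22, 3.59 and 2.82 FPKM at 24 h. 2700038G22Rik had 0.877, 1.28 and 0.862 FPKM at 144 h, against 5.41, 4.47 and 4.37 FPKM at 24 h. In each of these no 144 h library reached a 24 h library.

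The highest log2 fold changes with time in vehicle belonged to Gm45169, Gm45847, 1700003M07Rik, B230311B06Rik, 6530411M01Rik and Gm44899. Of these, Gm45169, Gm45847, 1700003M07Rik and Gm44899 reached 1 FPKM only at 144 h, which fixed their direction. Gm45169 had 3.90, 5.01 and 4.64 FPKM at 144 h, against 0.0981, 0.0470 and 0.281 FPKM at 24 h, a log2 fold change of 2.27. Gm45847 had 5.41, 4.93 and 4.55 FPKM at 144 h, against 0.532, 0.714 and 0.654 FPKM at 24 h, a log2 fold change of 1.87. The other 4 had log2 fold changes of 1.57 to 1.82. With CT-179 the highest were B230311B06Rik at 2.02, Gm45169 at 1.99, 2610035D17Rik at 1.78, 6530411M01Rik at 1.70, Gm45847 at 1.68 and Gm49124 at 1.68, and B230311B06Rik at 144 h had 13.6 FPKM in replicate 2 and 6.47 and 5.96 FPKM in the others (log2 fold change 1.68 without replicate 2).

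Neighbouring members did not all move together. Mir9-3hg, Gm35040 and Gm45169 follow each other on chromosome 7 with gaps of 1640 and 26615 bases. In vehicle Mir9-3hg rose by 0.67 on the log2 scale (limma adjusted p = 6.5e-06), and the log2 fold change of Gm45169 was 2.27. Gm35040, between them, had 12.8, 13.6 and 12.2 FPKM at 144 h, against 12.8, 14.6 and 13.3 FPKM at 24 h, which overlapped. In all, 8 adjacent pairs of members, 14 genes, lie within 100 kb of each other. The miR-9 hosts all rose with time in vehicle, C130071C03Rik by 0.85 (adjusted p = 0.0012) and Gm3764 by 0.25 (adjusted p = 0.038).

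Among members with a described role, Pantr1 and Lhx1os are transcribed away from the neural transcription factor genes Pou3f3 and Lhx1, with starts 926 and 125 bases apart. At 144 h Pantr1 had 13.3, 27.0 and 13.1 FPKM with CT-179, against 11.3, 10.8 and 11.3 FPKM with vehicle. All CT-179 libraries were higher, replicate 2 by far, and the log2 fold change was 0.56 (limma adjusted p = 0.15) with it and 0.23 (adjusted p = 0.018) without it. Pou3f3 averaged 37.7 ± 3.21 FPKM in CT-179 libraries and 38.2 ± 0.79 FPKM in vehicle libraries (SD, n = 3 each). Oip5os1 had 20.7, 9.68 and 20.1 FPKM with CT-179, against 22.6, 23.6 and 23.9 FPKM with vehicle, separate groups with a log2 fold change of -0.52 (limma adjusted p = 0.16), or -0.19 (adjusted p = 0.018) without replicate 2. 2900097C17Rik, the Norad gene, had 55.6, 53.3 and 54.8 FPKM with CT-179, against 60.3, 60.3 and 60.6 FPKM with vehicle. It was slightly but uniformly lower, by -0.14 on the log2 scale (limma adjusted p = 0.14, and 0.016 for -0.13 without replicate 2), and it rose by 0.56 with time in vehicle (adjusted p = 3.1e-06).

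Epb41l4aos and Bvht (Braveheart, known from cardiac lineage commitment in mouse cells) were high in the library that stood apart. Epb41l4aos had 27.0, 63.7 and 28.0 FPKM with CT-179 at 144 h, against 21.5, 21.1 and 22.2 FPKM with vehicle. Bvht had 2.57, 4.77 and 2.69 FPKM with CT-179, against 1.65, 1.75 and 1.92 FPKM with vehicle. Both were separate between groups, did not pass with all libraries (limma adjusted p = 0.14 and 0.085) and passed as higher without replicate 2, with log2 fold changes of 0.33 and 0.39. Their exonic lengths of 430 and 699 bases are below the median of the members. Of the role lists made for this work, none of the X-chromosome RNAs, imprinted RNAs or loci over ribosomal RNA repeats was a member.

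In brain no member changed with CT-179 by limma (0% of 13422 genes passed). The result was 0 members also without vehicle replicate 2, where 0.00745% of genes passed. There were 6 of the 82 tested members and 490 genes at an unadjusted p under 0.05. By the authors' deposited table, none of the 128 listed members had a false discovery rate under 0.05, where 17 genes did. Every direction in brain rests on the treatment label, since the titles of the CT-179 brain libraries also contain the word vehicle and their descriptions carry the letter V, while those of the vehicle libraries carry the letter C. None of the tested members was higher and 6 were lower with CT-179 in groups that did not overlap, against 5.71% and 4.6% of all genes. The median log2 fold change was -0.03 over the members and 0.02 over all genes. Gm29650, a member on chromosome Y, had 8.63, 0.0269 and 6.27 FPKM with CT-179, against 0, 0.106 and 9.65 FPKM with vehicle in brain. Both groups thus held libraries at or near 0 and libraries far above it, and the part of this difference in the brain results was not tested.

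The members with the smallest p in brain were Gm16973, Gm28592, Erdr1, Gm6712 and A230057D06Rik. Gm16973 had 2.15, 1.71 and 2.34 FPKM with CT-179, against 2.78, 3.07 and 3.36 FPKM with vehicle. The groups were separate, but the log2 fold change of -0.41 (SE 0.11) had an adjusted p of 0.97 in limma. Gm28592 had 1.85, 1.94 and 1.93 FPKM with CT-179, against 3.10, 2.34 and 2.48 FPKM with vehicle, also separate, and the same adjusted p. Gm3764 had 22.4, 12.2 and 16.9 FPKM with CT-179, against 18.4, 19.4 and 32.7 FPKM with vehicle in brain. These groups overlapped, with a log2 fold change of -0.42 (standard error 0.26; limma adjusted p = 0.97). AI480526 had 5.69, 2.71 and 4.57 FPKM with CT-179, against 5.65, 5.58 and 9.84 FPKM with vehicle, where the highest CT-179 library lay above the lower vehicle libraries, with a log2 fold change of -0.59 (standard error 0.26; limma adjusted p = 0.97). A230057D06Rik had 1.42, 0.561 and 0.826 FPKM with CT-179, against 1.22, 1.58 and 1.74 FPKM with vehicle, which overlapped in 1 library. The 2 tables were normalized separately, and the effects in cells and brain were not compared by a test.

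The order of levels in brain differed from that in cells. Bc1 was highest, an RNA of the neuronal cytoplasm that is transcribed by RNA polymerase III and acts as a repressor of translation in dendrites. It had 72407, 33341 and 44429 FPKM with CT-179, against 20443, 29872 and 43930 FPKM with vehicle, which overlapped (log2 fold change 0.67, SE 0.41, limma adjusted p = 0.97). It alone carried nearly all of the members' share of the summed FPKM, which was 5.97% to 16.7% in the brain libraries with Bc1 and 0.179% to 0.213% without it. In cells Bc1 had 45.5 to 78.0 FPKM in vehicle at 24 h. The RNA is shown for its long internal stretch of A bases, and 60.1% of it is near-identical to a stretch of an Elp6 transcript, one of 7 genes with such a copy.
Bc1, chr7:144914470-144914637, plus strand, 168 bases, from GENCODE M21 on GRCm38: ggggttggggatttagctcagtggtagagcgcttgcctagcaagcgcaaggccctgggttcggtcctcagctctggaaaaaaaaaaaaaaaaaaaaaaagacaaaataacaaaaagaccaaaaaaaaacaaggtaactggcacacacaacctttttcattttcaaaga
Lhx1os had 54.0, 40.1 and 40.8 FPKM with CT-179, against 43.5, 47.4 and 60.9 FPKM with vehicle in brain, while its highest value in the cells was 3.12 FPKM. Pvt1 and Halr1 ran the other way, with 0.630 to 0.734 FPKM and 0.0514 to 0.563 FPKM over the brain libraries. After Bc1 and Gm10076, 2900097C17Rik with a mean of 111 FPKM and Oip5os1 with 61.6 FPKM were the highest in brain.

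**Figure D5:**
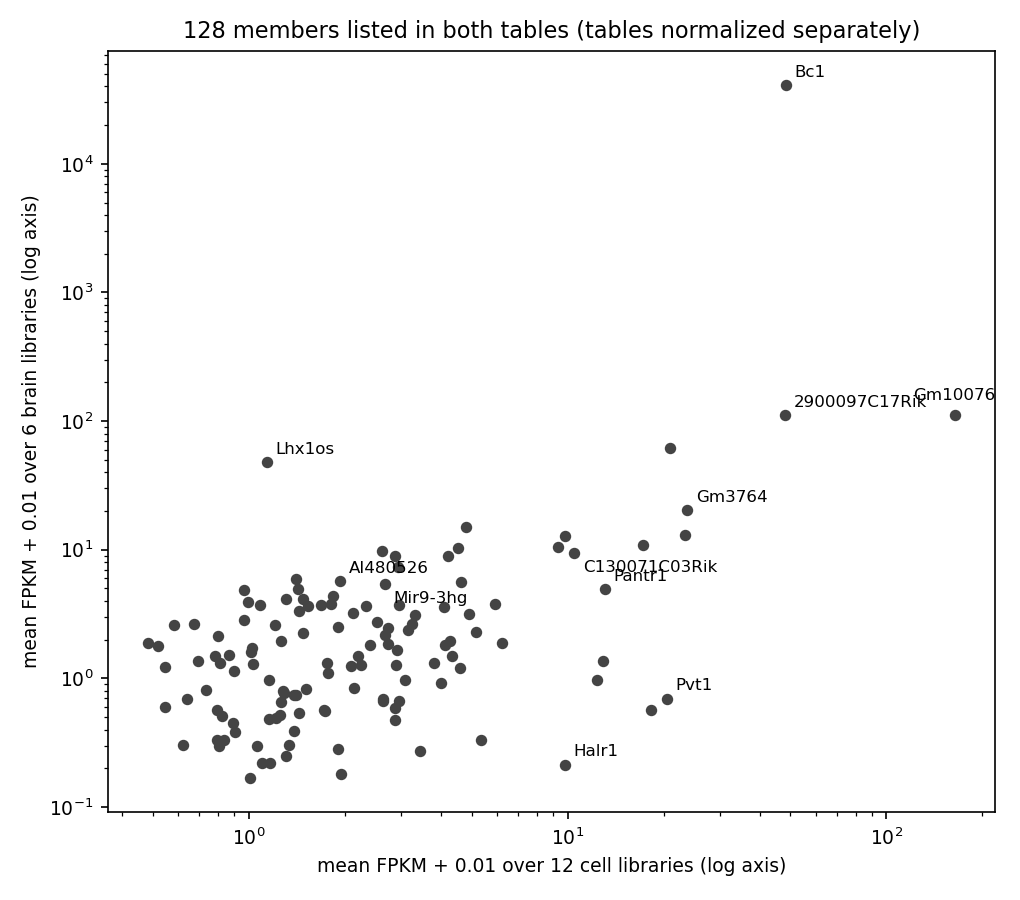
Mean FPKM of the 128 members listed in both tables, in 6 brain libraries (vertical, log axis) against 12 cell libraries (horizontal, log axis), with 0.01 added; the tables were normalized separately. Bc1 stands far above all others in brain, Lhx1os at a mean of 47.8 FPKM is high in brain and low in cells, and Pvt1 and Halr1 are high in cells and low in brain.

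Some members had genomic features that the rule did not use, and how common these are over all genes was not counted. An opposite-strand protein-coding start lay within 1 kb of the start of 26 members, 17 members overlapped a protein-coding gene body, and 13 shared exonic bases with a coding gene, where reads of member and coding gene cannot be told apart, for those on the same strand also with stranded counting; whether counting used strand is not given in the sources used here. Both genes were tested in 25 of these opposite-strand pairs, some of which overlap, such as Gm5914 with Ctcf and Gm17484 with Ddhd2. The log2 fold changes of member and partner had the same sign in 14 pairs for CT-179 at 144 h, 15 for CT-179 at 24 h and 15 for time in vehicle. As a description across genes, Pearson's r over these pairs was 0.02, 0.19 and 0.15 in the same order. Near-identical copies elsewhere were found for 18 members, including Gm10076 and Rpl41, Gm36684 and Sod2, 2900097C17Rik and Gm7292, and Erdr1 and Gm47283, so their values are uncertain. Set beside other gene types at 144 h without replicate 2, 19.6% of members fell with CT-179, against 16.7% of protein-coding, 14.4% of antisense, 24.5% of processed-transcript and 43.1% of TEC genes, a type for loci that await experimental proof. Of the members 5.41% rose, against 12.5%, 3.92%, 3.06% and 1.96% in the same order. In vehicle 41.2% of members rose with time, against 34.9% of protein-coding, 44.4% of antisense, 46.9% of processed-transcript and 43.1% of TEC genes.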

How the data were processed

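RNA extraction used RNeasy, library preparation a SMARTer kit for mRNA, and sequencing paired reads of 100 bases, as the labels' protocols state. The tools named in the submitters' processing notes are edgeR 3.28.1, HTSeq 0.6.1p2, R 3.6, STAR 2.6.0c and Trim Galore 0.5.0, with the build mm10; settings and strandedness are not given in the sources used here. For cells and for brain, the authors deposited FPKM per gene and library in separate tables. For brain the authors also deposited log2 fold changes, a likelihood ratio score and p-values; that fold change runs as vehicle replicates 1 and 3 over CT-179 (Pearson's r 0.979 across genes) and was used only where named.

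Testing covered genes that reached 1 FPKM in 3 or more libraries and was done on log2(FPKM + 1), a scale that understates changes of low genes, by limma 3.58.1 under R 4.3.3 (a mean per group, mean-variance trend, two-sided). Adjustment for multiple tests (Benjamini-Hochberg) ran over 12510 genes in 1 fit of 12 cell libraries and 13422 genes in 1 fit of 6 brain libraries, at 0.05. On simulated data for CT-179 at 24 h, with 200 of 12510 genes changed, 97% of log2 changes of 1 were recovered. The simulated spread was drawn independently for each gene, shrunk towards the median spread, and held no library that stood apart. It therefore does not give the share of changes recovered in the real fit, and few calls at 24 h do not mean few changes. Low values were whole multiples of 1 read (tolerance 0.1, up to 20 reads) for at least 89.2% of values in cells and 93.0% in brain, but the implied reads exceeded the FPKM scale by a factor of 1.23 to 1.40, so no count model was run; implied reads give depth only and cover counting error only.

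The members, the gene lists and the contrasts were chosen with earlier results of these data known. Named were members on role lists, the 6 largest rises and falls per contrast with groups apart and a group mean of at least 2 FPKM (5 smallest p where fewer than 3 passed), the highest 10 in cells and 6 in brain, and the members at the threshold; the microRNA hosts, the Myc region, Gm27010, Gm43597, Gm26779, Gm29650 and Gm35040 were chosen after their values were seen. Sequences are from RefSeq (GRCm38.p6; promoters as the table gives them) and GENCODE M21, whose gene models matched 99.5% of cell and 99.8% of brain identifiers. A near-identical copy had at least 95% identity over 50% of a transcript. The alternatives were another pseudocount, filter, scaling, weighting and length correction, separate fits, a replicate block and leaving out each library.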

Additional observations from a re-analysis of the deposited data

How the results depend on the processing

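The count of members that passed for CT-179 depends on a single library. At 24 h it was 2 with all libraries and 1 to 34 when a library was left out, the highest without CT-179 144 h replicate 2 (31 fell, 3 rose). At 144 h it was 8, and 5 to 37 with a library left out, highest without the same replicate and 15 without replicate 1. The share of all genes that passed moved as well without CT-179 144 h replicate 2, from 0.264% to 22.1% at 24 h and from 3.88% to 28.5% at 144 h. The other counts in this section stand without the share of all genes and describe the list only. The difference between times gave 0, and 0 to 6; time in vehicle 105, and 90 to 125; time with CT-179 106, and 93 to 124; brain 0 throughout. Array weights gave 40 members at 24 h, 58 at 144 h and 18 for the difference. Separate fits of 2 groups gave 26 at 24 h and 0 at 144 h. A filter of 2 FPKM, which tests fewer members, gave 4 at 144 h and 53 for time in either treatment, no filter gave 1 at 24 h, and length correction gave 15 at 144 h. With median-of-ratios scaling and without that replicate, both chosen after the data were seen, the counts were 30 at 24 h, 38 at 144 h and 6 for the difference, and with length correction and without it 30, 33 and 6. The cause was not tested beyond the fewer genes or samples of these fits. Under TPM scaling the all-gene median for CT-179 at 144 h was -0.20, against -0.05, and 12 members fell.

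The replicate numbers are shared by the groups, and the main fit did not pair the libraries. Deviations of same-numbered libraries from their group means correlated at -0.39 to 0.24, and those of differently numbered libraries at -0.56 to 0.46. With 3 libraries per group and 1 that stood apart, these values cannot exclude a pairing. With a replicate block 1 member passed at 24 h, 8 at 144 h, 102 and 105 for time in vehicle and with CT-179, and 0 for the difference and in brain. Of 30 pairs of member and contrast that passed and were named by the rule, 25 kept the threshold and direction under every alternative, and none reversed. Halr1 at 144 h lost it under 7 alternatives, TPM scaling (log2 0.30, adjusted p = 0.081) and length correction among them, Gm42047 at 144 h under 11, and AI480526 at 24 h under 12, the replicate block (adjusted p = 0.089) and no filter (0.057) among them, limma; Gm3764 and AI480526 at 144 h lost it only in the separate fit (adjusted p = 0.086 each, limma). Depth limits the low members most, with 30 under 30 implied reads.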
